A study of Saccharomyces cerevisiae with 6 samples.

Results

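The genes described here encode the proteins of the cytosolic ribosome of Saccharomyces cerevisiae, most of which exist as A and B copies. Members were chosen by name alone: probe sets whose gene symbol is RPL or RPS with a number and an optional A or B, or 1 of the stalk genes RPP0, RPP1A, RPP1B, RPP2A and RPP2B. This rule took 147 of 5498 probe sets with a gene, for 127 of 5449 genes, 75 of the large subunit (stalk included) and 52 of the small subunit. The yeast gene table of assembly R64 lists 137 such genes, in 59 A and B pairs and 19 genes without a copy. Of the pairs, 50 had a probe set for each copy and 9 for 1 copy. The other 10 genes were not analysed here.

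A ribosome holds a small subunit, which reads the message, and a large subunit, which joins amino acids and releases the chain through an exit tunnel. Most ribosomal protein pairs of yeast are remnants of an ancient genome duplication, and the copies of a pair encode identical or nearly identical proteins from separate promoters and untranslated ends. Growing cells make these messages in large amounts under the regulators Rap1, Fhl1, Ifh1 and Sfp1, and many stresses lower them. Several members also limit their own message, among them RPS14B and RPL22B through splicing and RPS28B through decay.

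RNA came from 6 cultures of BY4743, a diploid laboratory strain that lacks functional HIS3, LEU2 and URA3, so treated and control cells share these deletions. Exponential cultures at OD600 1.0 in minimal medium received 75 µM LoaOOH, the hydroperoxide of linoleic acid at a dose that stops growth, or an equal volume of its solvent methanol. After 1 h, 3 cultures of each group were harvested, each for 1 Affymetrix Yeast Genome 2.0 array. A single strain, dose and time were used, and the labels give a single colony as the origin of the cells. Values are RMA values on the log2 scale, and a change is the mean of the LoaOOH arrays minus that of the methanol arrays.

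Over all probe sets with a gene, r was 0.998 to 0.999 within a group and 0.950 to 0.954 between the groups. URA3 and LEU2 read at most 5.64 on average, while HIS3, of which this strain family keeps a part, averaged 10.99 in methanol and 12.42 in LoaOOH. Of 11 genes that diploids keep off, the values ran from 5.003 to 10.56, so some were well above the level of URA3. The 36 probe sets for spiked bacterial RNA were lower by 0.52 in the LoaOOH arrays (exact two-sided permutation p = 0.1, the smallest that 3 against 3 arrays allow). Scaling to them would add 0.52 to every change below, so directions of single messages are relative to the typical message. A difference between the changes of 2 messages is free of this scaling. The 3' minus 5' difference of 7 control messages, a sign of RNA quality, moved by -0.15 to 0.58 between the groups, and its part in the results was not tested.

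As a set, ribosomal protein messages stayed near the typical message while single members fell by up to 1.82-fold or rose by up to 1.71-fold on single probe sets. Limma called 96 of the 147 probe sets (65.3%) at an adjusted p under 0.05, 58 lower and 38 higher, against 78.7% of all probe sets on the array (41.9% lower and 36.8% higher). The treated and control arrays did not overlap in 124 of the 147, against 81.1% of all probe sets. The median change was -0.03 over the members and -0.03 over all probe sets. The range from the 25th to the 75th percentile was narrower, from -0.25 to 0.11 for the members and from -0.37 to 0.31 for all. A change of 0.5 or more was reached by 12 members, 10 of them lower, against 33.3% of all probe sets. With spike-in scaling 109 members were higher and 1 was lower, against 65.9% and 7.68% of all probe sets, and the members' median was 0.48. Testing against a minimum change of 0.25 left 31 calls, against 45.1% of all probe sets, with 25 lower and 6 higher, against 23.9% and 21.2%.

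**Figure D1:**
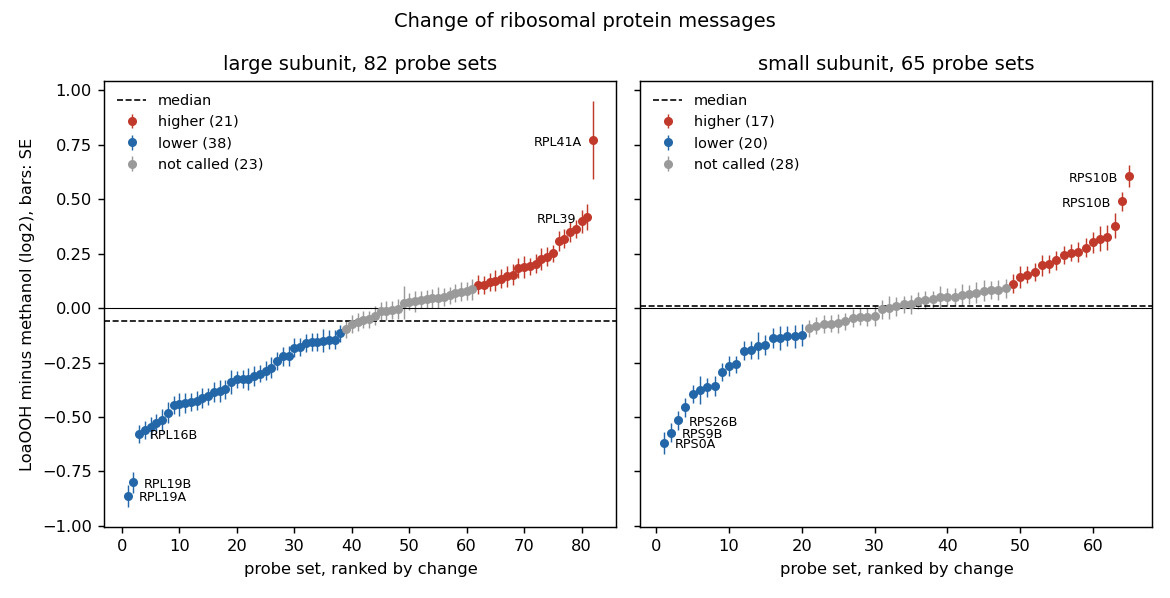
Each point is 1 probe set of a ribosomal protein gene, ranked by its change within the large (left) or small (right) subunit, with the log2 change on the vertical axis, its standard error as a bar and the limma call as colour. Most points lie between -0.5 and 0.5, with RPL19A, RPL19B and RPS0A lowest, RPL41A and RPS10B highest, and dashed medians of -0.06 and 0.01.

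The largest falls were those of RPL19A and RPL19B, copies of a large subunit protein whose long helix reaches across to the small subunit. RPL19A read 13.84, 13.82 and 13.88 in methanol and 13.03, 12.91 and 13.02 in LoaOOH, a change of -0.86 (SE 0.0489, limma adjusted p = 4.11e-07). RPL19B read 14.29, 14.32 and 14.23 in methanol and 13.54, 13.43 and 13.48 in LoaOOH, a change of -0.80 (SE 0.048, adjusted p = 5.83e-07). For each copy every treated array lay below every control array, and the fall of RPL19A was the 1 call that stayed lower with spike-in scaling, at -0.34. RPS0A, a small subunit protein needed for late steps of that subunit's maturation, came next. It read 13.90, 13.89 and 13.99 in methanol and 13.38, 13.29 and 13.25 in LoaOOH, 1.54-fold lower (change -0.62, adjusted p = 5.11e-06), again with no overlap.

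The other falls among the 10 largest were RPL16B (-0.58), RPS9B (-0.57), RPL34A (-0.56), RPL32 (-0.55), RPL8B (-0.53), RPS26B (-0.52) and the _at probe set of RPL18B (-0.51). Rps9 lies by the channel where the message enters the ribosome, and Rps26 lies where it leaves. All 10 had groups that do not overlap, as the rule for naming them required. Of these 10, 7 belong to the large subunit, as do 82 of all 147 member probe sets. Several had a copy that was called lower with a smaller change, with RPL16A at -0.38, RPL34B at -0.33, RPS9A at -0.38 and RPL8A at -0.18. RPS26A fell by 0.19 on the log2 scale on each of its probe sets. With spike-in scaling RPS26B (0.002) and RPL18B (0.01) were no longer below 0.

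The largest rise was that of RPL41A, which encodes a tiny, basic peptide between the subunits. It read 10.85, 10.23 and 10.70 in methanol and 11.01, 11.55 and 11.53 in LoaOOH, a change of 0.77 (SE 0.179, adjusted p = 0.0034). The treated arrays lay above the controls by little, and this was the noisiest and dimmest member, on an _s_at probe set that may read both copies. RPS10B, a protein of the head of the small subunit, rose on both of its probe sets. On the _at probe set it read 12.71, 12.68 and 12.72 in methanol and 13.22, 13.32 and 13.38 in LoaOOH, 1.52-fold higher (change 0.61, adjusted p = 4.23e-06), and on the _x_at probe set it rose by 0.49. RPS10A rose by 0.32 on its _at probe set, so the pair moved the same way.

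Messages for proteins of the exit tunnel differed in direction. RPL39, a short protein that lines the tunnel, read 13.90, 13.78 and 13.73 in methanol and 14.15, 14.22 and 14.29 in LoaOOH, a change of 0.42 (SE 0.0584, adjusted p = 0.000143). RPL4B, whose protein sends a loop into the tunnel, rose by 0.40 and RPL4A by 0.19, the latter on an _s_at probe set. RPL17B, another tunnel protein, fell by 0.44 on the log2 scale, while RPL17A (0.07) was not called. RPL6B (0.36), RPL29 (0.35), RPS28B (0.33) and RPP1A (0.32) were also among the 10 largest rises by probe set. As for the falls, the rule for naming these rises required groups that do not overlap. Under the spike-in scaling all of these rises were larger by 0.52.

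The median change was slightly lower for the large subunit than for the small. Of 82 large subunit probe sets 38 were lower, 21 higher and 23 not called, with a median change of -0.06. Of 65 small subunit probe sets 20 were lower, 17 higher and 28 not called, with a median of 0.01. Of all probe sets on the array 41.9% were lower and 36.8% higher. The medians lay 0.07 apart. Per array, and relative to each probe set's methanol mean, the large minus small median was -0.07, -0.08 and -0.05 in LoaOOH against 0.00, 0.01 and 0.00 in methanol. This centring holds the controls near 0, so the separation between the groups is partly built in. All treated arrays lay below the controls, at -0.064 ± 0.015 (SD, n = 3), and the gap is small beside the spread of members within a subunit (25th to 75th percentile -0.33 to 0.10 in the large and -0.14 to 0.11 in the small). It was -0.06 with _at probe sets alone. This gap is a description with no test, and it is free of spike-in scaling, which the counts of calls are not: scaled so, 55 large subunit probe sets were higher and 1 lower, and 54 and 0 of the small subunit.

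The stalk of the large subunit, which recruits translation factors, moved apart from its anchor. RPP1A, an acidic stalk protein, read 13.69, 13.65 and 13.65 in methanol and 13.97, 14.02 and 13.95 in LoaOOH, a change of 0.32 (adjusted p = 9.85e-05). RPP1B rose by 0.20, RPP2B by 0.18 and RPP2A by 0.11 (adjusted p = 0.00224, 0.00407 and 0.0363), and none of these overlapped between groups. The call of RPP2A was lost without any 1 of 5 of the 6 arrays (adjusted p up to 0.102). RPP0, the protein that anchors them to the ribosome, read 14.21, 14.25 and 14.20 in methanol and 14.08, 14.08 and 14.04 in LoaOOH, lower by 0.16 (adjusted p = 0.00677) and higher by 0.36 with spike-in scaling. RPL12A and RPL12B, which form the stalk's base with RPP0, fell by 0.44 and 0.27 on the log2 scale.

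RPL5 and RPL11 carry the ribosomal 5S RNA into the large subunit. RPL5 rose by 0.13, RPL11A (0.03) was not called, and RPL11B was lower by 0.32 on its _at probe set and not called on its _s_at probe set (-0.01). RPL3, of the peptidyl transferase centre, fell by 0.29 on the log2 scale and RPL10, which joins last, was not called (-0.10). Of the genes whose protein is made as a fusion to ubiquitin, RPL40B rose by 0.31 and RPL40A by 0.11, and RPS31 (0.06) was not called.

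Of the 19 genes without a copy 18 were measured. Of these, 4 were higher, 5 lower and 9 not called, against 36.8% higher and 41.9% lower of all probe sets. RPL39, RPL29 (0.35), RPL38 (0.23) and RPL5 were the higher ones. RPL32, RPL3, RPS13 (-0.26), RPP0 and RPS20 (-0.13) were lower. RPL32 read 14.45, 14.56 and 14.53 in methanol and 14.01, 13.94 and 13.95 in LoaOOH, with no overlap (adjusted p = 5.66e-06). Their median change was -0.06, and that of probe sets named A or B was -0.01.

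The changes of the 2 copies of a ribosomal protein lay closer together than those of most other probe sets, and in some pairs they lay far apart. For each array the log2 value of the A copy minus that of the B copy was taken, with the brightest probe set of each gene, so that any constant scaling of an array cancels. In 33 of 50 pairs (66%) the treated and control values of this difference did not overlap, against 81.3% of all 15111202 combinations of 2 probe sets of different genes on the array. Each such pair has an exact two-sided permutation p of 0.1, the smallest possible here, so this test alone calls 0 pairs at 0.05. Limma on the same differences, added after the data were seen and adjusted over these and all probe sets, called 27 pairs, against 82.5% of all combinations at the same p. The median gap between the changes of A and B was 0.16, against 0.27 for copies of different ribosomal proteins and 0.52 for all combinations. The gap reached 0.25 in 13 pairs (26%), against 52.8% for copies of different ribosomal proteins and 74.1% of all combinations. Among copies of different ribosomal proteins 81.0% of the combinations did not overlap between the groups. The change of A was above that of B in 16 of the 33 and below in 17, and in 11 and 16 of the pairs that limma called.

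**Figure D2:**
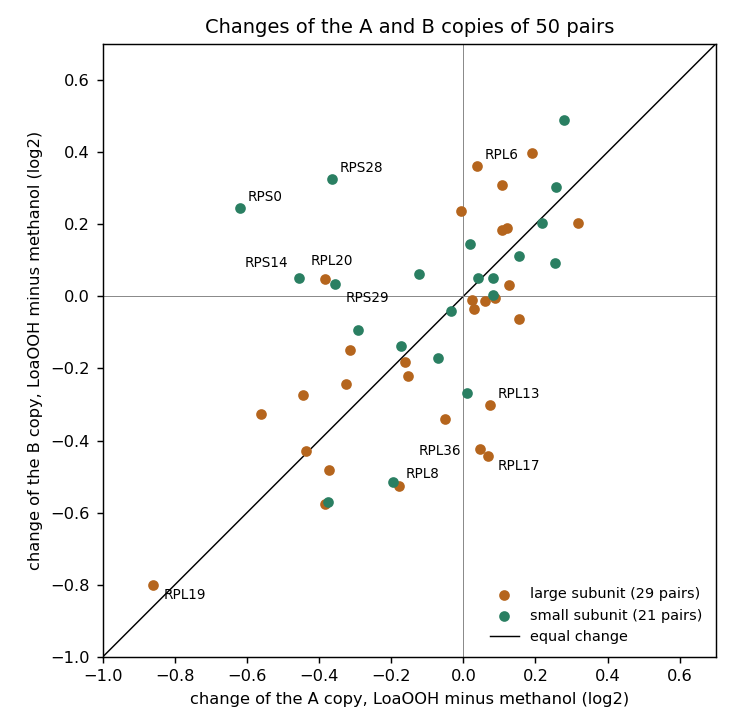
Each point is 1 pair, with the log2 change of the A copy on the horizontal and of the B copy on the vertical axis, coloured by subunit. The line marks equal changes. RPS0 and RPS28 lie far to the upper left, RPL17, RPL36 and RPL13 lie below the line, and RPL19 lies close to it at the lower left.

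Across the 50 pairs the changes of the copies correlated at 0.54 (Pearson's r, a description over pairs that share arrays and, in part, probe sequence). It was 0.68 over 29 large subunit pairs and 0.30 over 21 small subunit pairs. In 14 pairs the copies were both called lower, in 9 both higher and in 2 in opposite directions. In 17 pairs only 1 copy was called, which does not show that the copies differ, and in 8 neither was. Of all probe sets 41.9% were called lower and 36.8% higher, and these pair counts were not set against those of unrelated probe sets.

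RPS0 stood furthest apart. RPS0B read 13.83, 13.83 and 13.85 in methanol and 14.13, 14.04 and 14.08 in LoaOOH, a rise of 0.24 (adjusted p = 0.000603) against the fall of RPS0A by 0.62 on the log2 scale. RPS0A minus RPS0B was 0.07, 0.05 and 0.14 in methanol and -0.75, -0.75 and -0.83 in LoaOOH. The copies' changes thus differed by -0.86 (95% interval -0.97 to -0.76, limma adjusted p = 2.92e-07), a 1.82-fold shift of A relative to B that no constant scaling of an array alters.

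RPS28, a small subunit protein at the channel where the message leaves, was the other pair with copies called in opposite directions on the brightest probe sets, and with _at probe sets RPL20 was another. RPS28A read 13.90, 13.90 and 13.93 in methanol and 13.56, 13.49 and 13.59 in LoaOOH (change -0.36, adjusted p = 5.39e-05). RPS28B, whose message is under decay control by its own protein, read 13.06, 13.12 and 13.26 in methanol and 13.49, 13.45 and 13.47 in LoaOOH (change 0.33, adjusted p = 0.000605). Neither copy overlapped between groups, and the changes differed by -0.69 (95% interval -0.81 to -0.57). With spike-in scaling RPS28A turned to 0.15 (not called) and RPS0A stayed below 0 at -0.10 (not called), so no pair then had opposite calls, while the differences between copies were the same.

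In RPS14, a protein of the small subunit's platform, the A copy fell and the B copy, which Rps14 controls through splicing, was not called. RPS14A read 14.36, 14.41 and 14.43 in methanol and 13.96, 13.92 and 13.95 in LoaOOH (change -0.46, adjusted p = 8.66e-06). RPS14B read 12.51, 12.57 and 12.66 in methanol and 12.63, 12.59 and 12.68 in LoaOOH (change 0.05, adjusted p = 0.374), with overlapping groups. The changes differed by -0.51 (95% interval -0.61 to -0.41). RPS29, a zinc-binding protein of the small subunit's head, had the same form: on _at probe sets RPS29A fell by 0.39 on the log2 scale, RPS29B changed by 0.03, and the changes differed by -0.43.

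In RPL17, RPL36 and RPL13 of the large subunit the B copy fell and the A copy was not called. RPL17B read 13.78, 13.75 and 13.74 in methanol and 13.40, 13.22 and 13.31 in LoaOOH, while RPL17A read 14.01, 14.02 and 13.94 and then 14.09, 14.04 and 14.05. The treated values of RPL17A lay just above the controls without a call (adjusted p = 0.166), and the copies' changes differed by 0.51 (95% interval 0.40 to 0.62). RPL36B fell by 0.42 on the log2 scale against 0.05 for RPL36A, a difference of 0.47, and RPL13B fell by 0.30 against 0.07 for RPL13A, a difference of 0.38. RPL13A turned to -0.002 (not called) after quantile normalisation. RPL6 ran with rising messages: RPL6B rose by 0.36, RPL6A (0.04) was not called, and the changes differed by -0.32 (95% interval -0.41 to -0.23).

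**Figure D3:**
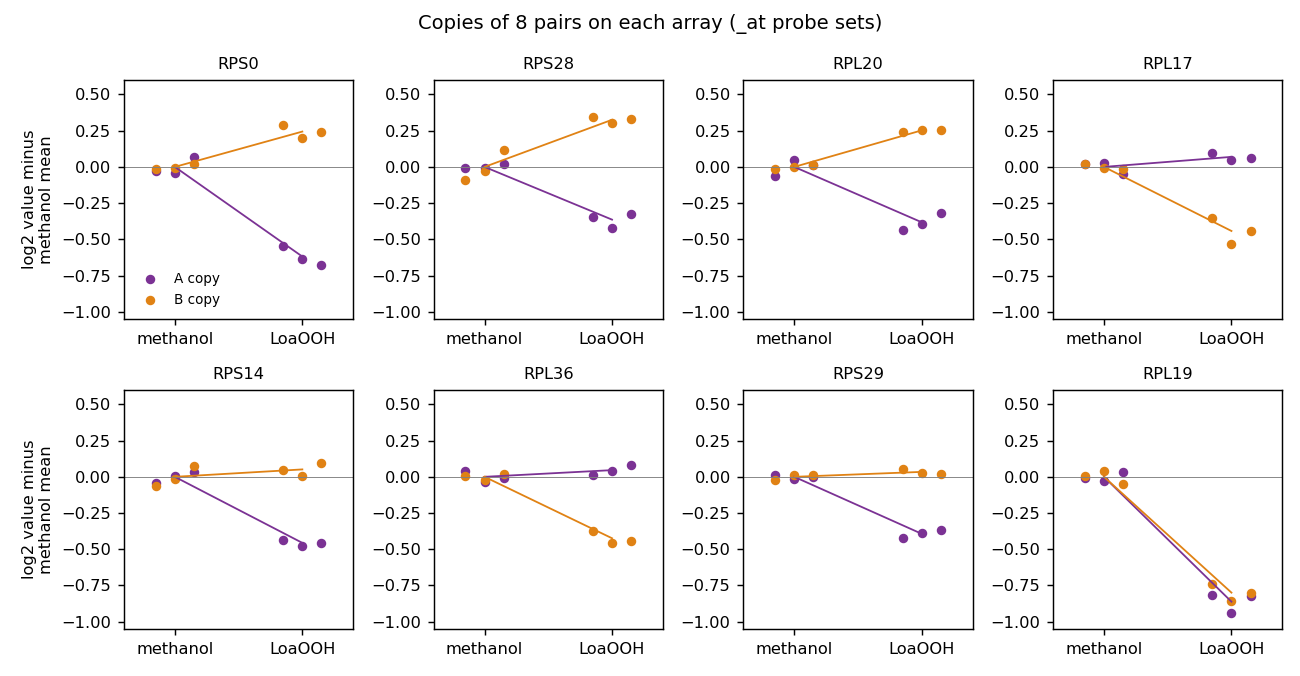
For 8 pairs, read with _at probe sets, each panel shows the log2 value of the A copy and the B copy on each array, less the copy's own methanol mean, with lines joining group means. The treated points of A and B separate in the first 7 pairs and lie together in RPL19.

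Probe design bears on these pairs, because the ending of a probe set's name tells whether its probes may also read a similar gene. Of the 147 probe sets 118 end in _at, 23 in _s_at and 6 in _x_at, and the last 2 kinds may read both copies. In 15 of the 50 pairs the brightest probe set of a copy was of these kinds. With _at probe sets alone 49 pairs could be compared, 34 did not overlap and limma called 30, with RPL2, RPL11 and RPS23 among those gained and RPL4 without a value. For RPL20 limma called the pair with either choice, but the size of the difference and the call of RPL20B depended on the probe set. With the brightest probe sets the changes differed by -0.43 (95% interval -0.54 to -0.32, limma adjusted p = 3.02e-05). Whether the _s_at probe set of RPL20B reads both copies was not tested. On _at probe sets RPL20A fell by 0.38 and RPL20B rose by 0.25, each without overlap, and the changes differed by -0.63 (95% interval -0.74 to -0.52, limma adjusted p = 2.18e-06), while the _s_at probe set under RPL20B changed by 0.05, between the copies.

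Of 20 genes with a second probe set of those kinds, 15 had the same call on both, and the gap in change was over 0.2 for 4. These 4 were RPL18B (-0.51 on _at and -0.12 on _s_at), RPL11B (-0.32 and -0.01), RPL8A (-0.18 and -0.41) and RPL20B. Where the partner had an _at probe set (19 genes), the _s_at or _x_at change lay between those of the copies in 12. For RPL11 the choice decides the result: the changes of A and B differed by 0.04 (95% interval -0.12 to 0.19) with the brightest probe sets and by 0.35 (0.18 to 0.51, limma adjusted p = 0.00172) with _at probe sets.

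The pairs that limma did not call differ in how tightly they were measured. For RPL19 the changes differed by -0.06, with a 95% interval of -0.18 to 0.05, so both copies fell strongly and any difference is small beside the fall. RPL37A and RPL37B fell by 0.44 and 0.43 on the log2 scale and their changes differed by -0.01 (-0.12 to 0.11). For RPS1 the interval was -0.09 to 0.10 with neither copy called, and for RPP1, whose B copy rose less than A, it was -0.0005 to 0.23. RPL22, whose protein holds back splicing of the RPL22B message, was called at a difference of -0.16 (-0.30 to -0.03), but its groups overlapped.

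**Figure D4:**
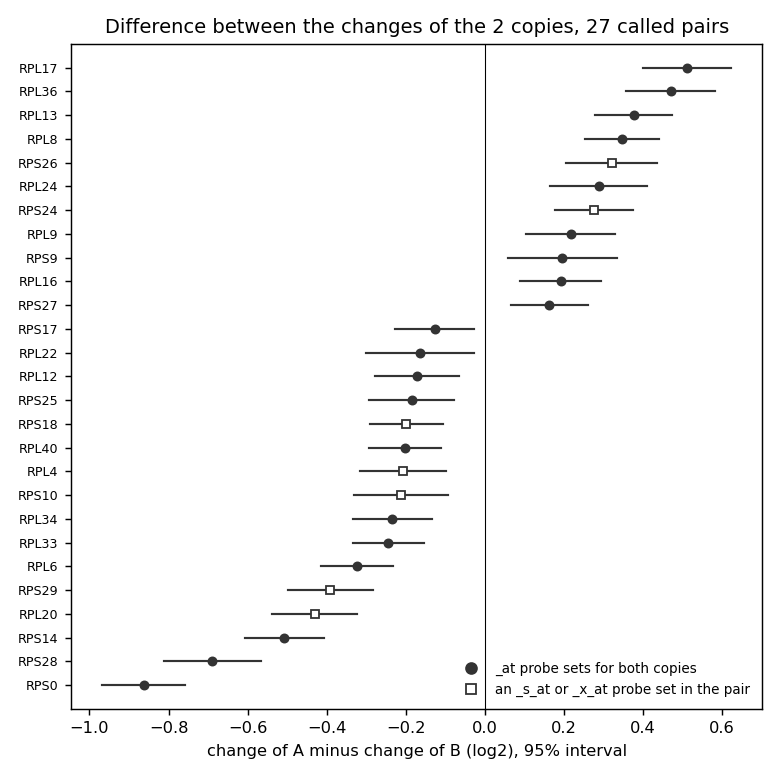
For each of the 27 pairs that limma called, the point is the log2 change of A minus that of B with its 95% interval, sorted, with open squares where a probe set may read both copies. RPS0, RPS28, RPS14, RPL20 and RPS29 lie lowest, at -0.86 to -0.39, and RPL17, RPL36 and RPL13 highest, at 0.51 to 0.38.

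Signal level moves with the size of these changes. The 21 brightest members, with means of 14.51 to 14.79 on arrays whose highest value was 15.14, changed by only -0.14 to 0.11, with 1 called higher and 1 lower. The 27 other probe sets on the array with means from 14.502 ran from -0.43 to 0.22, with 5 higher and 4 lower. Across all 147 members the mean level and the size of the change correlated at -0.53 (Pearson's r, a description across probe sets of the same arrays). The part of the arrays' upper range in small changes of bright members was not tested.

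Ribosomal proteins need regulators to be made and dedicated chaperones to reach the ribosome, and the chaperone messages were the list that moved 1 way. Of 9 measured, 8 were lower, 0 higher and 1 not called (median -0.48, against -0.03 for all probe sets, of which 41.9% were lower and 36.8% higher). TSR4, which guards Rps2, fell 1.95-fold (change -0.96, SE 0.074, adjusted p = 2.71e-06). YAR1, which guards Rps3, fell 1.80-fold and FAP7, which works with Rps14, 1.74-fold. The messages of the clients RPS2 (-0.06) and RPS3 (-0.08) were not called. For Rps14, the message of RPS14A was called lower with FAP7 (-0.46) and that of RPS14B (0.05) was not called. Chaperones and clients were not compared as a set. ACL4, the partner of Rpl4, fell by 0.56 on the log2 scale, while RPL4A and RPL4B rose. TSR2, the partner of Rps26, was not called (0.10). With spike-in scaling 2 of the 9 were lower and 2 higher, with a median of 0.03, against 7.68% lower and 65.9% higher of all probe sets.

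Of 14 regulators 5 were higher, 2 lower and 7 not called (median -0.01), against 36.8% higher and 41.9% lower of all probe sets. TOD6 and DOT6, related repressors of ribosome assembly genes, moved apart: TOD6 rose by 0.76 (adjusted p = 7.85e-05) and DOT6 fell by 0.83 on the log2 scale (adjusted p = 6.97e-06). SCH9, a growth kinase under TORC1, rose by 0.50 and HMO1, a protein of ribosomal protein promoters, by 0.36. RAP1 (0.18) and SFP1 (0.14) rose, YAK1, a kinase that slows growth, fell by 0.45, and FHL1 (-0.03) and IFH1 (-0.13) were not called. Scaled to the spike-ins, 12 rose and DOT6 alone fell, against 65.9% higher and 7.68% lower of all probe sets.

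Factors that sit on the ribosome or work with it also had calls in both directions. Of all probe sets 36.8% were higher and 41.9% lower, and 65.9% and 7.68% with spike-in scaling. Of 9 ribosome-bound factors 5 rose and 2 fell (median 0.13, and 7 higher and 0 lower with spike-in scaling). SSZ1 and ZUO1, which form the ribosome-associated complex, rose by 0.72 and 0.32, and the chaperone SSB2 that they assist rose by 0.36. EGD2 and EGD1, subunits of the nascent chain complex, fell by 0.75 and 0.35 on the log2 scale, and the small subunit protein ASC1 was not called (0.00). Of 9 measured elongation factors 5 rose and 2 fell (median 0.11, and 7 and 0 with spike-in scaling). CAM1 and TEF4 encode alternative forms of 1 exchange factor subunit, and CAM1 fell by 0.77 on the log2 scale while TEF4 rose by 0.24. ANB1, the form of eIF5A used at low oxygen, rose by 0.32, EFT2, elongation factor eEF2, by 0.24 on an _s_at probe set, and HEF3 fell by 0.59.

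Enzymes that modify ribosomal proteins held 3 higher and 2 lower of 9 (median -0.02, and 7 and 0 with spike-in scaling). The shares over all probe sets were 36.8% and 41.9%, and 65.9% and 7.68% with spike-in scaling. RKM3, which methylates Rpl42, rose by 0.60, TAE1, which methylates Rpl12 and Rps25, by 0.47, and RKM2, which methylates Rpl12, by 0.39. TPA1, which hydroxylates Rps23, fell by 0.71 and RKM1, which methylates Rpl23, by 0.45 on the log2 scale.

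**Figure D5:**
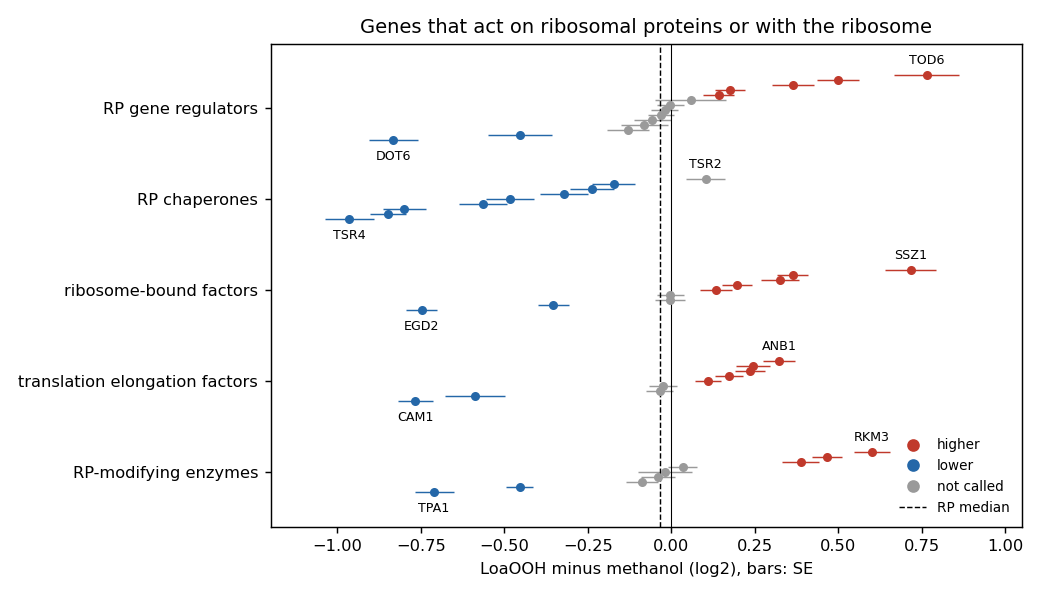
Each point is 1 gene of the 5 lists, with its log2 change and standard error on the horizontal axis and its limma call as colour. All but 1 of the ribosomal protein chaperones lie left of 0, down to -0.96 for TSR4, whereas each other list has genes on both sides of 0.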

How the data were processed

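The authors deposited RMA values on the log2 scale. Per the submitters' processing notes, RMA and Partek were used. Versions and the genome build were not given in the sources used. Quantile normalisation within RMA hides a change shared by most messages. The 5498 probe sets with a gene in the platform annotation were tested, and the 402 without one (controls included) were left out. LoaOOH was compared with methanol by limma 3.58.1 in R 4.3.3 (lmFit, eBayes, no covariate, two-sided, Benjamini-Hochberg over all probe sets, called under 0.05). For pairs, A minus B per array was compared by exact permutation. No protein sequences were given, so a planned limma fit over all paralog pairs of the genome was replaced by that exact test and by the limma fit with the pair values added to the table. Its variance estimate and adjustment for pairs thus drew mostly on single probe sets. Whether this made the intervals and adjusted p of pairs too tight was not tested.

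The members, gene lists, tests and alternatives were chosen with earlier results of these data known. The rule for names took the 10 largest rises and falls among called probe sets whose groups do not overlap. It also took the 10 pairs furthest apart among those without overlap, and the stalk genes. Leading genes without a copy and leading genes of each list were taken too. Other members were named after their values were seen. Labels call the replicates biological and name a single colony as origin, so p-values measure the spread between these cultures only. Precision is limited by the number of arrays. The median SE was 0.0432 for a member's change. The fits were run on simulated data in which far fewer probe sets changed than were called here, and copies varied independently. There 39 of 50 probe sets with a change of 0.25 were called, and 16 of 5298 without a change. Of simulated pairs, 8 of 10 with a gap of 0.25 were called and 0 of 20 without a gap. Because these settings differ from the real arrays, the simulation cannot show how the fits behave on them. No sequences are printed, and some members are not reported here.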

Additional observations from a re-analysis of the deposited data

How the results depend on the processing

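The direction of single messages depended on scaling, whereas a constant scaling of each array cancels in the differences between copies. After quantile normalisation, which is not constant, 32 pairs did not overlap instead of 33, and limma called 28 instead of 27. With spike-in scaling 109 members were called higher and 1 lower, against 38 and 58. Members named by rule that fell and then turned to values above 0 were RPS26B (0.00248), RPL18B (0.00575), RPS14A (0.0622), RPL17B (0.0759), RPL36B (0.0940), RPL20A (0.14), RPS28A (0.15), RPS29A on its _x_at probe set (0.16), RPL13B (0.22), RPL3 (0.23), RPS13 (0.26), RPL8A (0.34) and RPP0 (0.36). Other members described as lower did so too, among them RPL12A (0.07), RPL37A (0.08), RPL37B (0.09), RPL16A (0.13), RPL34B (0.19), RPL11B (0.19), RPL12B (0.25) and RPS20 (0.39). RPL13A turned to -0.00213 with quantile normalisation. Against a minimum change of 0.25, 31 members were called (6 higher, 25 lower). Under quantile normalisation, median centring, a variance trend with robust fitting, array weights, no dimmest 25%, _at probe sets alone and an adjusted p under 0.01, calls numbered 77 to 114. Leaving out each array in turn gave 80 to 90 calls, 33 to 38 pairs without overlap, 25 to 28 pairs by limma and a large minus small median of -0.08 to -0.06. With the replicate number as a replicate block there were 96 calls, and 28 pairs by limma instead of 27. Same-numbered arrays deviated together at r = 0.31, 0.05 and 0.26, and arrays of different number had r of -0.30 to 0.13. The second array of each group correlated best with an array of another number. The main fit does not take the numbers as pairs, and whether they mark pairs was not tested. The alternative of 70% protein identity was not run, since it needs protein sequences.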

Other observations

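Ribosomal RNA read by control probe sets also differed between the groups. The 8 probe sets of 18S RNA, of the small subunit, averaged 13.4, 13.3 and 13.2 in methanol and 12.7, 12.5 and 12.5 in LoaOOH, and the 8 of 25S RNA, of the large subunit, averaged 13.9, 13.8 and 13.7 and then 13.4, 13.2 and 13.2. Groups did not overlap for either. The falls were 0.73 and 0.54 on the log2 scale (exact two-sided permutation p = 0.1 each, the smallest possible), beside 0.52 for the spike-ins.

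In the gene order of assembly R64, 9 combinations of ribosomal protein genes are direct neighbours, over 16 genes. Changes had the same sign in 6 of the 9. RPS14B (0.05), RPS22A (0.26) and RPL39 (0.42) lie in a row, as do RPS16B (0.11), RPL13A (0.07) and RPP1A (0.32). The other copies of RPL13 and RPS16 are neighbours too, and RPL13B (-0.30) and RPS16A (0.15) were called in opposite directions in the deposited scaling. Whether position has a part in this was not tested.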
